A study of Aspergillus nidulans with 48 samples.

Results

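The transcript levels of 8 *A. nidulans* genes that encode peroxide-removing and thiol-reducing enzymes were followed across mycelia and conidia. The genes were chosen by name from the 10988 genes of the deposited table, by no rule on measured values but with earlier results of these data known. They are *prxA* (AN8692, a thioredoxin-dependent peroxidase), *ccp1* (AN10220, a putative cytochrome c peroxidase), *gpxA* (AN2846, a putative glutathione peroxidase), *trxA* (AN0170, thioredoxin), *trxR* (AN3581, thioredoxin reductase), *trxB* (AN8218, a putative thioredoxin reductase), *glrA* (AN0932, a putative glutathione reductase) and *gstA* (AN4905, a theta class glutathione S-transferase). All 8 passed the filter on low values in both cell types and were tested in both.

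Peroxiredoxins and glutathione peroxidases reduce hydrogen peroxide and organic peroxides, and are themselves reduced by thioredoxin or glutathione. Thioredoxin reductase and glutathione reductase return these carriers to their reduced form with electrons of NADPH. Cytochrome c peroxidase takes electrons from cytochrome c instead, and glutathione S-transferases couple glutathione to reactive compounds. Menadione sodium bisulfite (MSB) cycles between its quinone and reduced forms in cells and generates superoxide, which is converted to hydrogen peroxide. AtfA and AtfB are bZIP-type transcription factors related to the stress regulator Atf1 of fission yeast.

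RNA was sequenced from the double deletion strain Δ*atfA*Δ*atfB*, the single deletion strains Δ*atfA* and Δ*atfB*, and the control strain, each grown on Barratt's agar plates at 37 °C with MSB or untreated, with 3 libraries for each of the 16 combinations of cell type, strain and treatment. The labels give the MSB dose as 0.04 Mm. Mycelia came from young surface cultures without conidiophores, with no culture age given per sample, and conidia were harvested after 3 days of growth. The genotype label of the double mutant names *atfB* in both places, and the strain was taken as Δ*atfA*Δ*atfB* from the sample titles. Its *atfA* reads are not given here, so its *atfA* deletion rests on those titles. The paper calls the libraries of a group biological replicates, and the p-values measure the spread between them.

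The total count was 12974631 to 36314359 in the mycelial libraries and 8426329 to 24958904 in the conidial ones. A single gene of the 8 held up to 159402 reads (*prxA*) in 1 library, and the lowest count in any library was that of *trxB* in an untreated Δ*atfA* conidial library. The deleted genes were read first. In conidia, Δ*atfA* libraries held 8.93 to 55.7 scaled RPKM of *atfA*, against 405 to 796 in control libraries. In mycelia they held 11.04 to 15.03, against 38.6 to 76.2 in control libraries. The conidial libraries labelled Δ*atfB* kept reads of *atfB*, with 139 to 363 scaled RPKM against 326 to 521 in control libraries, whereas Δ*atfA*Δ*atfB* conidia had 1.57 to 2.43. They are called the libraries labelled Δ*atfB* for that reason. In mycelia *atfB* was low in every strain, with 0.489 to 1.22 scaled RPKM in Δ*atfB* libraries and 1.39 to 3.51 in control libraries. Mycelia of both single mutants thus kept some reads of the deleted gene. These levels alone do not settle the deletions there, and the mycelial strain names follow the labels. The 10 conidiophore and conidium markers (*brlA*, *abaA*, *wetA*, *vosA*, *rodA*, *dewA*, *wA*, *yA*, *catA* and *conJ*) summed to 2871 to 57150 RPKM in conidia and to 34.2 to 865 RPKM in mycelia, and none was at 0 in all libraries of a group. In both untreated and MSB-treated Δ*atfA* conidia, replicate 3, which belongs to batch 2, had the lowest marker sum of its group (13290 against 55400 and 57150 RPKM on MSB, and 2871 against 10720 and 11220 RPKM untreated).

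Levels are given as scaled RPKM, that is, reads normalised to gene length and library total, with the totals scaled by relative log expression factors within a cell type. A gene "passed" at a Benjamini-Hochberg adjusted p below 0.05 in edgeR's quasi-likelihood test over all genes tested, and was "called" if its log2 fold change was also above 1 or below −1. In untreated control cultures, *prxA* (641 ± 30.96 RPKM in mycelia and 137 ± 7.55 in conidia, SD, n = 3 each) and *trxR* (289 ± 13.7 in mycelia and 111.9 ± 4.89 in conidia) were more abundant in the deposited RPKM of mycelia. *trxA* (445 ± 35.5 in mycelia and 578 ± 52.1 in conidia) and *gpxA* (70.6 ± 2.70 in mycelia and 126 ± 26.9 in conidia) were more abundant in those of conidia. The cell types were cultured and sequenced apart, and these levels were not tested against each other. By mean RPKM *prxA* stood at place 3 of all 10988 genes in MSB-treated control mycelia and at place 188 in untreated ones, and in conidia of that strain at place 971 on MSB and 825 untreated.

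In mycelia, MSB upregulated *prxA*, *ccp1*, *gpxA*, *trxA*, *trxR* and *gstA* in every strain with a log2 fold change above 1, raised *glrA* to a smaller extent, and downregulated *trxB*. All 8 genes passed the test in all 4 strains. This compares with 54.6% of the genes tested in Δ*atfA*, 45.2% in Δ*atfB*, 43% in Δ*atfA*Δ*atfB* and 48.3% in the control. Of the 8 genes, 7 were called in Δ*atfA* and in the control, and 6 in Δ*atfB* and in Δ*atfA*Δ*atfB*. Among all genes tested 17.5% were called in Δ*atfA*, 13.7% in Δ*atfB*, 12.7% in Δ*atfA*Δ*atfB* and 14% in the control. The median log2 fold change of the 8 genes was 1.89 in Δ*atfA*, 1.60 in Δ*atfB*, 1.89 in Δ*atfA*Δ*atfB* and 2.02 in the control, while that of all genes tested lay between −0.01 and 0.00. The summed level of the conidiophore markers was lower on MSB in each strain (34.2 to 134 RPKM against 66.8 to 865 RPKM untreated), and its part in these changes was not tested. In RNA of whole cultures, fewer cells that express a gene and less of its RNA per cell cannot be told apart.

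**Figure D1:**
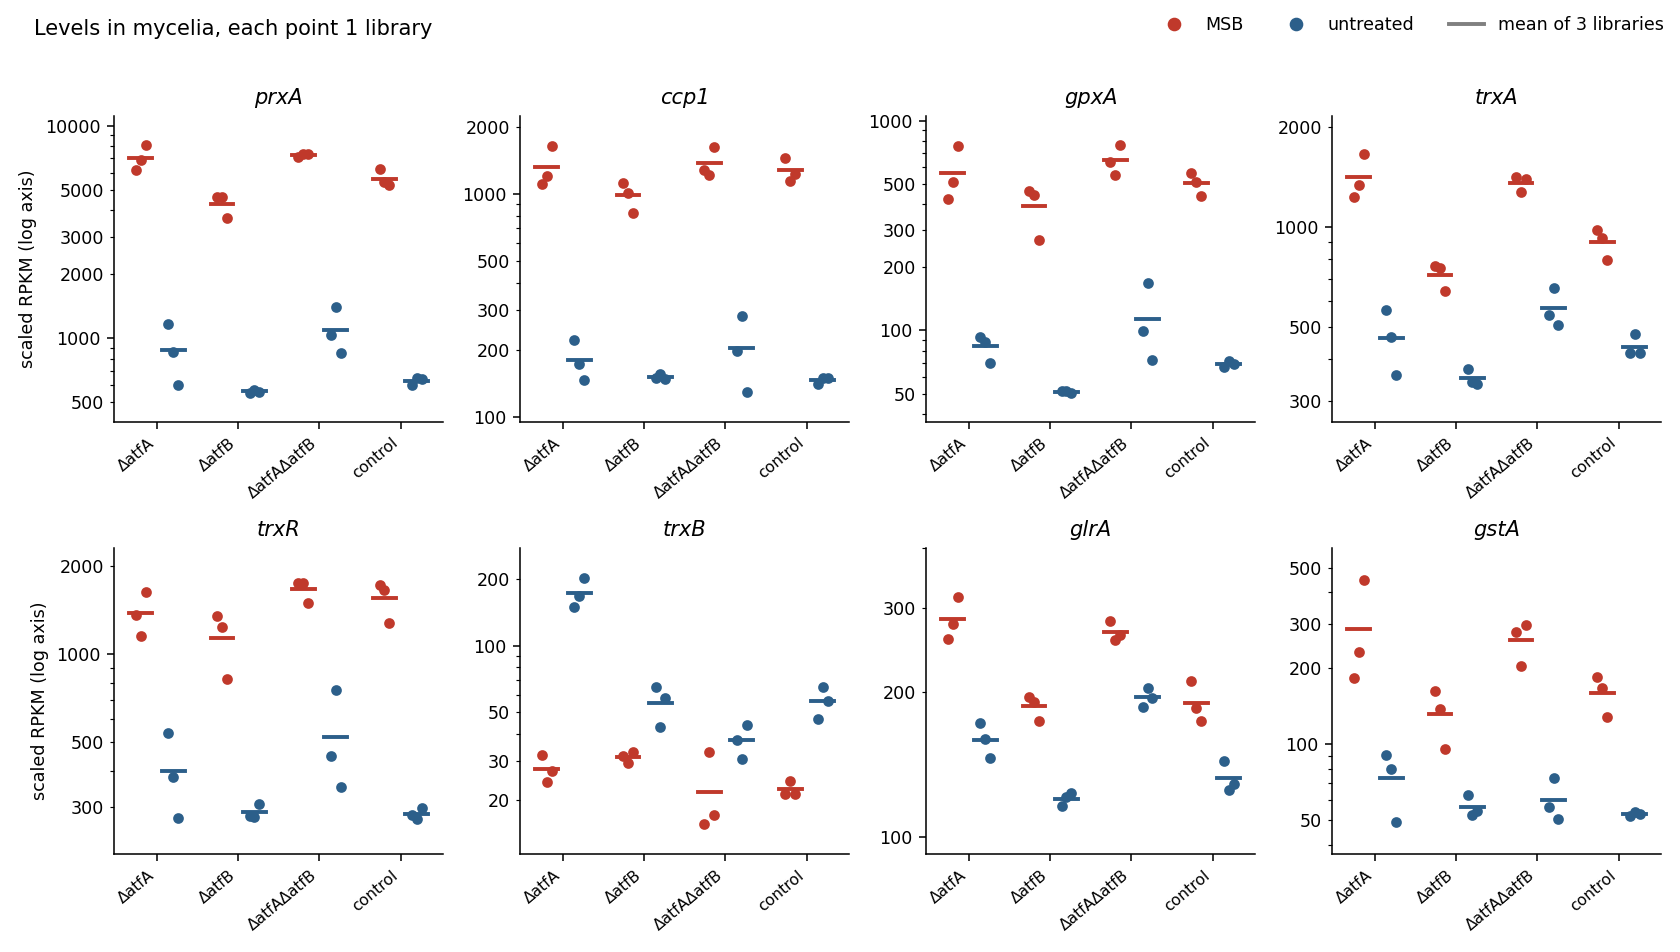
Levels of the 8 genes in mycelia, in scaled RPKM on a log axis, with a point for each of 3 libraries and a bar at their mean, for the 3 mutants and the control, MSB (red) left of untreated (blue). Libraries on MSB lie above untreated ones for every gene but *trxB*, whose mean is lower on MSB in each strain, with overlapping libraries in Δ*atfA*Δ*atfB*, and which is highest in untreated Δ*atfA* (150 to 202).

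Among the peroxidases, *prxA* had 6227, 5439 and 5226 scaled RPKM in the 3 MSB-treated control libraries, against 599, 646 and 642 in the untreated ones. The groups did not overlap, and the means differed 8.95-fold (log2 fold change 3.16 ± 0.19, SE; adjusted p = 1.32e-10). On MSB no mutant differed from the control past the test, while Δ*atfA*Δ*atfB* was higher than Δ*atfB* (0.76 ± 0.18, adjusted p = 0.0019). The mutants had 6167, 6867 and 8100 on MSB in Δ*atfA*, overlapping with the control, 4617, 4590 and 3679 in Δ*atfB*, all below it, and 7083, 7325 and 7376 in Δ*atfA*Δ*atfB*, all above it. Their untreated libraries held 1164, 857 and 602 in Δ*atfA*, 553, 569 and 560 in Δ*atfB*, and 1028, 1395 and 850 in Δ*atfA*Δ*atfB*, so the untreated libraries of both strains without *atfA* varied more than those of the others. The log2 fold change of *prxA* was 3.01 in Δ*atfA*, 2.94 in Δ*atfB* and 2.73 in Δ*atfA*Δ*atfB*.

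The cytochrome c peroxidase gene *ccp1* had 1446, 1149 and 1233 scaled RPKM in MSB-treated control mycelia, against 140, 149 and 149 untreated, an 8.73-fold difference (log2 fold change 3.13 ± 0.22, adjusted p = 1.38e-09). In the mutants its log2 fold changes were 2.88 in Δ*atfA*, 2.71 in Δ*atfB* and 2.76 in Δ*atfA*Δ*atfB*. The glutathione peroxidase gene *gpxA* had 563, 510 and 436 on MSB in the control, against 67.2, 71.8 and 68.9 untreated (log2 fold change 2.86 ± 0.26, adjusted p = 3.35e-08). It rose by 2.75 in Δ*atfA*, 2.93 in Δ*atfB* and 2.52 in Δ*atfA*Δ*atfB* on the log2 scale. These 3 peroxidase genes thus changed by 5.73 to 8.95 times in the ratio of group means in each of the 4 strains. In untreated Δ*atfA*Δ*atfB* mycelia replicate 2 was the highest of the 3 libraries for both genes, with 284 for *ccp1* against 198 and 129 in the other libraries and 169 for *gpxA* against 98.9 and 72.5.

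The thioredoxin gene *trxA* was abundant without MSB and changed less. It had 978, 929 and 797 scaled RPKM in MSB-treated control mycelia, against 417, 476 and 418 untreated (log2 fold change 1.04 ± 0.14, adjusted p = 3.43e-06). In Δ*atfA* it had 1234, 1339 and 1665 on MSB, against 561, 467 and 358 untreated (log2 fold change 1.61 ± 0.14). This was a stronger response than in the control, by 0.57 ± 0.19 on the log2 scale (interaction of deletion and treatment, adjusted p = 0.029), and it no longer passed when any 1 of 4 of the 12 libraries was left out. The log2 fold change was 1.04 in Δ*atfB* and 1.26 in Δ*atfA*Δ*atfB*. Without replicate 1 of the MSB-treated libraries of the strain concerned, the log2 fold change of *trxA* was 0.98 in the control and 0.995 in Δ*atfB*, just below the fold limit, and with library totals alone it was 0.99 in the control.

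The 2 thioredoxin reductase genes moved in opposite directions. *trxR* had 1727, 1666 and 1284 scaled RPKM in MSB-treated control mycelia, against 281, 273 and 297 untreated (log2 fold change 2.46 ± 0.25, adjusted p = 1.32e-07), and rose by 1.80 in Δ*atfA*, 1.98 in Δ*atfB* and 1.68 in Δ*atfA*Δ*atfB* on the log2 scale. *trxB* had 21.4, 24.5 and 21.4 in MSB-treated control mycelia, against 46.6, 65.4 and 56.2 untreated (log2 fold change −1.32 ± 0.22, adjusted p = 5.70e-05). The decrease of *trxB* was largest in Δ*atfA*, with 31.95, 24.3 and 27.1 on MSB against 150, 167 and 202 untreated (log2 fold change −2.64 ± 0.23). It differed from that of the control by −1.32 ± 0.31 (interaction, adjusted p = 0.0029), while on MSB the 2 strains did not differ past the test (0.30, adjusted p = 0.29). In Δ*atfB* (−0.81) and Δ*atfA*Δ*atfB* (−0.77) *trxB* passed but was not called. In Δ*atfA*Δ*atfB* replicate 2 on MSB (32.96) stood above replicates 1 and 3 (15.6 and 17.2) and within the range of the untreated libraries (37.5, 30.7 and 43.9), and without it the log2 fold change was −1.18.

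The glutathione reductase gene *glrA* showed small changes with little spread between libraries. It had 211, 186 and 174 scaled RPKM in MSB-treated control mycelia, against 144, 125 and 128 untreated (log2 fold change 0.52 ± 0.09, adjusted p = 5.09e-05). In the mutants it rose by 0.84 in Δ*atfA*, 0.64 in Δ*atfB* and 0.45 in Δ*atfA*Δ*atfB*. The glutathione S-transferase gene *gstA* had 184, 167 and 128 on MSB in the control, against 51.8, 53.98 and 53.2 untreated (log2 fold change 1.59 ± 0.28, adjusted p = 8.27e-05). Its log2 fold change was 1.97 in Δ*atfA*, 1.22 in Δ*atfB* and 2.11 in Δ*atfA*Δ*atfB*, with a wide spread in MSB-treated Δ*atfA* (182, 231 and 446).

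**Figure D2:**
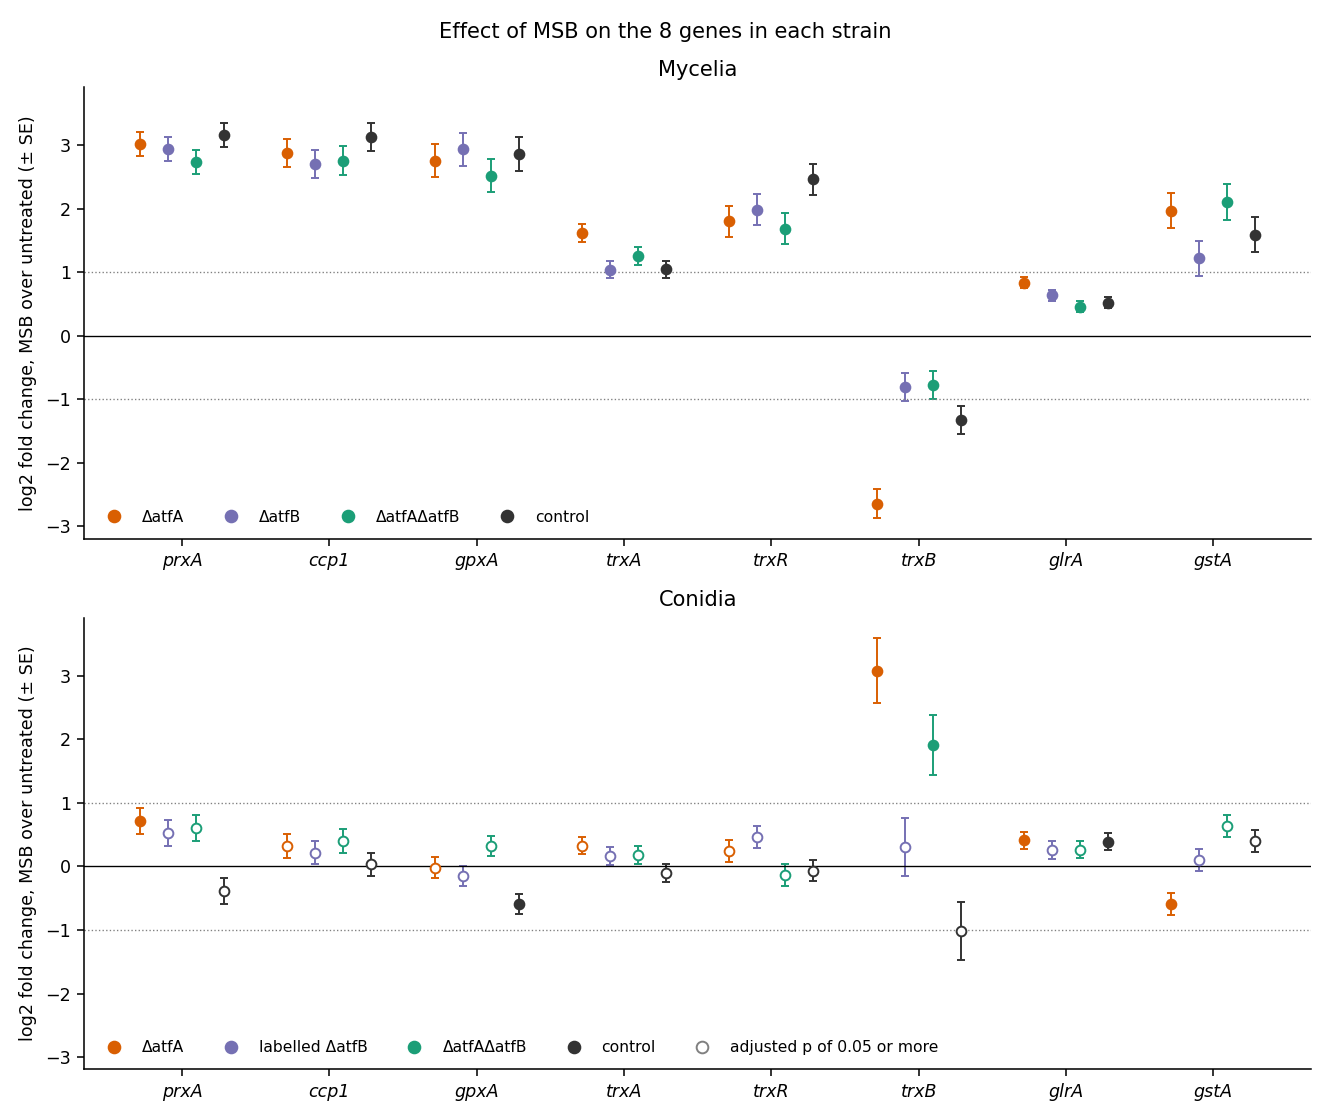
Log2 fold change of MSB over untreated for each of the 8 genes, with its standard error, in mycelia (top) and conidia (bottom), for Δ*atfA*, Δ*atfB* (in conidia the libraries labelled so, which hold *atfB* reads), the double mutant and the control from left to right; open points have an adjusted p of 0.05 or more and dotted lines mark the fold limit. In mycelia 7 of the 8 genes lie above 0 in every strain, while in conidia most points lie between −1 and 1 and *trxB* alone passes 1, in Δ*atfA* (3.08) and Δ*atfA*Δ*atfB* (1.91).

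In mycelia, *trxB* in untreated cultures was the 1 gene of the 8 called in Δ*atfA* against the control, near the share of all genes. Between untreated Δ*atfA*Δ*atfB* and Δ*atfB*, which also differ in *atfA*, *gpxA* was called and *trxB* was not. In untreated cultures, 1 of the 8 genes was called in Δ*atfA* against the control (12.4% of all genes tested) and 3 passed (42.2% of all). The called gene was *trxB*, which had 150, 167 and 202 scaled RPKM in Δ*atfA*, against 46.6, 65.4 and 56.2 in the control (3.09-fold, log2 fold change 1.63 ± 0.22, adjusted p = 5.20e-06). *prxA* (0.48 ± 0.18) and *glrA* (0.27 ± 0.09) also passed and were higher. The libraries of *prxA* overlapped with those of the control, and its value was 0.21 without the high replicate 1 of Δ*atfA*, which ended the pass (adjusted p = 0.33). The pass of *prxA* was lost when any 1 of 5 of the 6 libraries was left out, and that of *glrA* with any 1 of 3. On MSB none of the 8 was called (8.82% of all genes) and 3 passed (37.3% of all), namely *trxA* (0.65 ± 0.14), *glrA* (0.58 ± 0.09) and *gstA* (0.85 ± 0.27), all higher in Δ*atfA*. Without replicate 1 of MSB-treated Δ*atfA*, the lowest of the 3, *gstA* reached 1.09, and without replicate 3, the highest, it was 0.37 and did not pass (adjusted p = 0.24). DESeq2 and limma also called 0 of the 8 in this comparison.

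In untreated Δ*atfA*Δ*atfB* mycelia 0 of the 8 genes were called (7.0% of all genes) and 6 passed (31.9% of all). *prxA* (0.79 ± 0.18), *trxR* (0.87 ± 0.24), *gpxA* (0.71 ± 0.25), *glrA* (0.56 ± 0.09) and *trxA* (0.38 ± 0.14) were higher and *trxB* (−0.59 ± 0.22) was lower than in the control. Without replicate 2 of untreated Δ*atfA*Δ*atfB*, the highest library, *trxR* was 0.50 and *gpxA* 0.31, and neither passed (adjusted p of 0.097 and 0.33). Without replicate 3 *trxR* reached 1.09. *gpxA*, *trxA* and *trxB* each lost the pass when any 1 of 4 of the 6 libraries was left out. On MSB *trxA* (0.59 ± 0.14) and *glrA* (0.49 ± 0.09) passed and 0 were called, against 19.2% and 4.72% of all genes. For both comparisons DESeq2 and limma called 0 as well. In Δ*atfB* against the control, 0 of the 8 passed in untreated cultures (25.6% of all genes passed and 4.22% were called) and 0 on MSB (19.5% and 3.05%). At an unadjusted p below 0.05 there were 1 and 3 genes in these comparisons, and DESeq2 and limma passed 0 in both.

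*trxB* separated the double mutant from the single mutant most clearly. In untreated mycelia it had 37.5, 30.7 and 43.9 scaled RPKM in Δ*atfA*Δ*atfB*, against 150, 167 and 202 in Δ*atfA* (log2 fold change −2.21 ± 0.22, adjusted p = 2.70e-07), and it was the 1 gene of the 8 called in that comparison (6.73% of all genes, with 26% passed). The rise of *trxB* in Δ*atfA* was therefore not present in Δ*atfA*Δ*atfB*, where the gene was below the control. On MSB 0 of the 8 genes were called or passed between Δ*atfA*Δ*atfB* and Δ*atfA* (2.66% of all genes called and 7.95% passed), 0 had an unadjusted p below 0.05, and DESeq2 and limma passed 0. Against Δ*atfB*, *gpxA* was the 1 gene called in untreated cultures (1.15 ± 0.25, adjusted p = 0.0010; 11% of all genes called and 41% passed), and its value was 0.75 without replicate 2 of Δ*atfA*Δ*atfB*. *prxA* (0.96) and *trxR* (0.85) passed the fold limit there without replicate 3 of Δ*atfA*Δ*atfB* (1.11 and 1.07), and *prxA* also without its replicate 1 (1.0009). Without replicate 2 they were 0.74 and 0.48, and *trxR* did not pass (adjusted p = 0.0995). On MSB 0 were called by edgeR, DESeq2 or limma (10.2% of all genes), while 5 passed (42.3% of all), all higher in Δ*atfA*Δ*atfB* than in Δ*atfB*, and *gstA* (0.98) reached 1.01 to 1.15 without replicate 1 or 2 of Δ*atfB* or replicate 2 of Δ*atfA*Δ*atfB*. The response to MSB differed from that of the control in 1 called gene in Δ*atfA*, *trxB* (10.6% of all genes called for the interaction, and 32.3% passed beside 2 of the 8), and in 0 called or passed genes in Δ*atfB* (4.7% called and 18% passed of all) and Δ*atfA*Δ*atfB* (4.05% and 12.1%), where 0 and 1 had an unadjusted p below 0.05 and DESeq2 and limma passed 0.

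**Figure D3:**
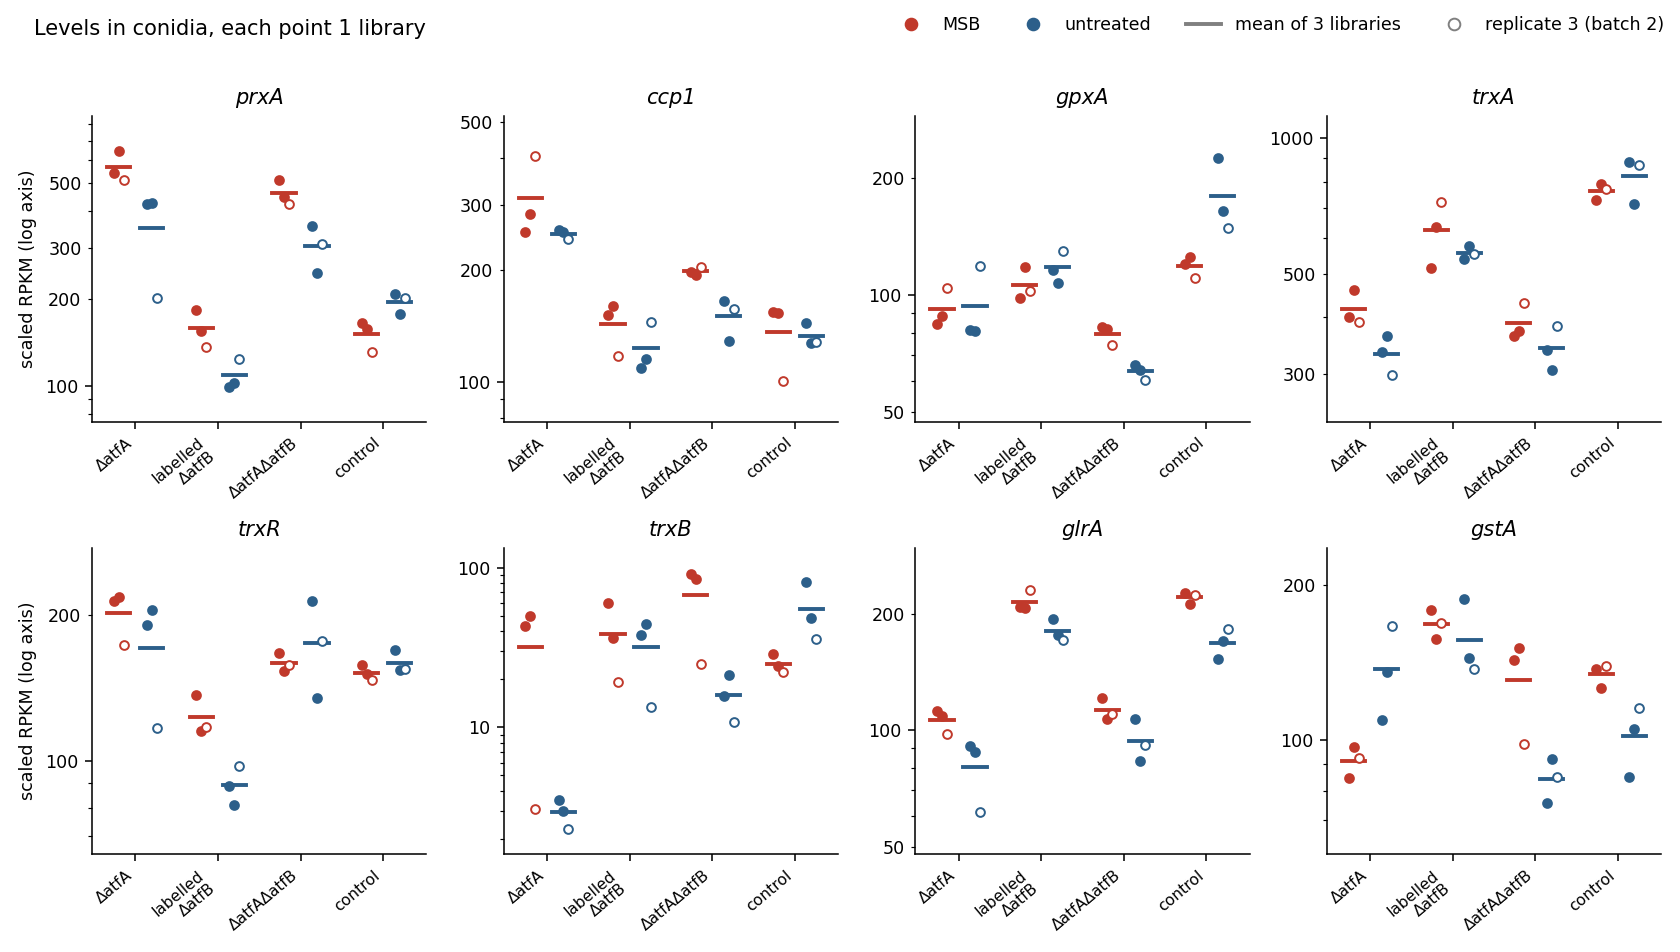
Levels of the 8 genes in conidia, in scaled RPKM on a log axis, drawn as for mycelia except that the points of Δ*atfB* are the libraries labelled so, which hold *atfB* reads, with replicate 3, the library of batch 2, as an open point. *trxB* spans 2.32 to 91.8, with the MSB-treated Δ*atfA* library of batch 2 (3.10) at the level of untreated Δ*atfA* (2.32 to 3.51), and with this scaling *trxA* and *glrA* lie lower in Δ*atfA* and Δ*atfA*Δ*atfB* than in the control (*glrA* differs by 0.01 on the log2 scale in untreated Δ*atfA*Δ*atfB* with library totals alone).

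In conidia of the control strain none of the 8 genes was called on MSB (14.6% of all genes tested were) and 2 passed (32.2% of all). *gpxA* was lower, with 120, 125 and 110.7 scaled RPKM on MSB against 225, 164 and 149 untreated (log2 fold change −0.60 ± 0.16, adjusted p = 0.0090, and −0.39 without passing when replicate 1 of the untreated control was left out), and *glrA* was higher, with 226, 212 and 223 on MSB against 153, 170 and 183 untreated (0.39 ± 0.14, adjusted p = 0.038), a pass that was lost when any 1 of 5 of the 6 libraries was left out. *prxA* had 164, 157 and 131 on MSB against 207, 178 and 200 untreated and did not pass. *trxB* had 28.7, 24.4 and 22.2 on MSB against 81.03, 48.1 and 35.5 untreated (log2 fold change −1.02), also without passing. DESeq2 and limma called 0 of the 8, and 4 had an unadjusted p below 0.05. The libraries labelled Δ*atfB* had 0 of the 8 called or passed (4.27% of all genes called and 10.4% passed), with 2 at an unadjusted p below 0.05 and 0 passed by DESeq2 and limma.

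*trxB* responded to MSB in conidia of both strains without *atfA*. In Δ*atfA* 1 of the 8 genes was called (15.1% of all genes) and 4 passed (36.1% of all), and in Δ*atfA*Δ*atfB* *trxB* was the 1 gene called and passed (1.24% and 1.68% of all genes). In Δ*atfA* *trxB* had 42.8, 49.8 and 3.10 scaled RPKM on MSB, against 3.51, 3.01 and 2.32 untreated (log2 fold change 3.08 ± 0.51, adjusted p = 3.19e-04). Replicates 1 and 2, of batch 1, rose by 3.61 and 4.05 on the log2 scale against their same-numbered untreated libraries, and replicate 3, of batch 2, differed by 0.42. The same MSB-treated replicate 3 had the low sum of conidiophore markers (13290 RPKM, against 55400 and 57150 RPKM in replicates 1 and 2), and the part of these markers in the *trxB* values was not tested. Without replicate 3 on MSB the fit gave 3.64, and batch 1 alone gave 3.82. In Δ*atfA*Δ*atfB* the gene had 91.8, 85.2 and 24.9 on MSB, against 15.8, 21.3 and 10.8 untreated, without overlap (log2 fold change 1.91 ± 0.47, adjusted p = 0.046). That call was lost, with log2 fold changes from 1.73 upwards, when any 1 of the 3 untreated libraries or of replicates 1 and 2 on MSB was left out (adjusted p of 0.079 to 0.18), and it held without replicate 3 on MSB (2.11). The opposite signs in the mutants and the control gave an interaction of 4.09 ± 0.69 in Δ*atfA* (adjusted p = 0.0017) and 2.93 ± 0.66 in Δ*atfA*Δ*atfB* (adjusted p = 0.013).

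*prxA* also differed in its response. It had 542, 648 and 512 scaled RPKM in MSB-treated Δ*atfA* conidia, against 424, 429 and 201 untreated (log2 fold change 0.71 ± 0.20, adjusted p = 0.011). The low untreated library, replicate 3, also had the lowest marker sum (2871 RPKM, against 10720 and 11220 RPKM), and without it the value was 0.43 and did not pass (adjusted p = 0.065). Its interaction was 1.09 ± 0.29 in Δ*atfA* (adjusted p = 0.020) and 0.98 ± 0.29 in Δ*atfA*Δ*atfB* (adjusted p = 0.041), the second of which no longer passed when any 1 of 11 of the 12 libraries was left out. In Δ*atfA* the value was 0.81 without replicate 3 of the untreated libraries, the low one, 0.99 without replicate 3 of the untreated control, and 1.02 (adjusted p = 0.059) without replicate 2 of MSB-treated Δ*atfA*. It was 0.96 in Δ*atfA* with library totals alone, and 0.83 in Δ*atfA*Δ*atfB* without passing (adjusted p = 0.065). For *gstA* in Δ*atfA* the interaction was −0.99 ± 0.25 (adjusted p = 0.015), as the gene had 84.8, 96.9 and 92.5 on MSB against 110, 136 and 167 untreated in Δ*atfA*, and 137, 127 and 139 on MSB against 84.9, 105.1 and 116 untreated in the control. It lay between −1.02 and −1.13, past the fold limit, when replicate 2 or 3 of the untreated control, replicate 2 of the MSB-treated control, replicate 1 of untreated Δ*atfA* or replicate 2 of MSB-treated Δ*atfA* was left out. For *gpxA* in Δ*atfA*Δ*atfB* it was 0.92 ± 0.23 (adjusted p = 0.020), and 1.06 without replicate 3 of the untreated control. It no longer passed when any 1 of 4 of the 12 libraries was left out. In all, 2 of the 8 genes were called for the interaction in Δ*atfA* (8.2% of all genes) and 1 in Δ*atfA*Δ*atfB* (6.28%), and 3 passed in each (13.2% and 9.04% of all). In the libraries labelled Δ*atfB* edgeR found no gene with an interaction among all 10143 tested (0.0%), where 1053 had an unadjusted p below 0.05, DESeq2 passed 65 and limma 0. The conidiophore markers moved with MSB in conidia too, with summed levels of 13290 to 57150 RPKM on MSB and 2871 to 28150 RPKM untreated, and their part in these values was not tested.

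With this scaling, *prxA* was higher and *trxA* and *glrA* were lower than in the control in Δ*atfA* and Δ*atfA*Δ*atfB* conidia with and without MSB, and *gpxA* and *trxB* were lower in the untreated ones, on a background in which much of the transcriptome differed. In untreated conidia 3 of the 8 genes were called in Δ*atfA* against the control (38.8% of all genes) and 7 passed (63.2% of all). On MSB 3 were called (27.9%) and 5 passed (52.6%). In Δ*atfA*Δ*atfB* 3 were called (35.5%) and 5 passed (60.6%) in untreated conidia, and 2 were called (30.0%) and 6 passed (54.4%) on MSB. For the calls in untreated conidia, 3 of 8 stands beside 38.8% and 35.5% of all genes. The scaling bears on every such value, because the scaling factors were 1.16 to 1.35 in the conidia of both strains and 0.69 to 0.76 in control conidia. Under library totals alone, the median of all genes was 0.84 in untreated and 0.74 in MSB-treated Δ*atfA* conidia, and 0.91 untreated and 0.77 on MSB in those of Δ*atfA*Δ*atfB*, against 0.04 to 0.08 with the scaling used here, so that increases grow and decreases shrink by about that amount.

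Among the peroxidases *prxA* was higher in conidia of both strains without *atfA* under every scaling tried. On MSB it had 542, 648 and 512 scaled RPKM in Δ*atfA* and 514, 448 and 423 in Δ*atfA*Δ*atfB*, against 164, 157 and 131 in the control, without overlap. The log2 fold change was 1.92 ± 0.21 in Δ*atfA* (3.77-fold, adjusted p = 3.75e-07) and 1.62 ± 0.21 in Δ*atfA*Δ*atfB* (3.07-fold, adjusted p = 2.85e-06). In untreated conidia it passed with 0.82 ± 0.21 in Δ*atfA* and 0.64 ± 0.20 in Δ*atfA*Δ*atfB*, and without the low replicate 3 of untreated Δ*atfA* the value was 1.11. That replicate (201) lay at the level of replicate 3 of the untreated control (200), so the libraries of these groups overlapped. The untreated pass in Δ*atfA*Δ*atfB* was lost when any 1 of 3 of the 6 libraries was left out. *ccp1* was higher in Δ*atfA*, with 253, 282 and 405 on MSB against 154, 154 and 100 in the control (log2 fold change 1.20 ± 0.19, adjusted p = 3.09e-05) and with 257, 253 and 242 untreated against 144, 128 and 128 in the control (0.91 ± 0.19). The value on MSB was 0.96 without replicate 3 of Δ*atfA* and 0.99 without replicate 3 of the control. In Δ*atfA*Δ*atfB* *ccp1* passed on MSB (0.54 ± 0.19, and 0.34 without passing when replicate 3 of the control was left out) and not in untreated conidia. *gpxA* was lower in untreated conidia, with 81.4, 80.5 and 118 in Δ*atfA* and 66.1, 64.2 and 60.5 in Δ*atfA*Δ*atfB*, against 225, 164 and 149 in the control (−0.94 ± 0.16 and −1.49 ± 0.16). Without replicate 3 of Δ*atfA* or of the control the first of these was −1.15 or −1.09, past the fold limit. These untreated values were, with library totals alone, −0.13 in Δ*atfA*, without passing, and −0.63 in Δ*atfA*Δ*atfB*. On MSB *gpxA* was lower in Δ*atfA*Δ*atfB* (−0.58 ± 0.16), and with library totals alone the sign turned (0.12).

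The thioredoxin gene *trxA* was among the lower genes. It had 335, 364 and 297 scaled RPKM in untreated Δ*atfA* conidia and 338, 306 and 383 in Δ*atfA*Δ*atfB*, against 883, 715 and 869 in the control. Neither mutant overlapped with the control (log2 fold change −1.30 ± 0.14, adjusted p = 2.05e-07, and −1.26 ± 0.14, adjusted p = 3.23e-07). On MSB it was −0.87 in Δ*atfA* and −0.97 in Δ*atfA*Δ*atfB*, the value in Δ*atfA*Δ*atfB* being −1.03 without replicate 3 on MSB. With library totals alone *trxA* stayed lower, with −0.50 in untreated Δ*atfA* and −0.41 in untreated Δ*atfA*Δ*atfB*, and did not pass on MSB (−0.20 and −0.27). With this scaling *trxR*, which rose with *prxA* in mycelia, passed in none of these 4 comparisons, with log2 fold changes of 0.07 to 0.40. In deposited RPKM, which use library totals alone, *trxR* was higher without overlap in all 4. Its mean was 210.8 in untreated Δ*atfA* and 221.7 in untreated Δ*atfA*Δ*atfB*, against 111.9 in the control. On MSB these means were 240.5 and 194.5, against 114.2. Over the 24 conidial libraries *trxR* also followed *prxA* in deposited RPKM (Pearson r of log2(RPKM + 0.1) 0.953). This r includes the shift between strains that the scaling removes.

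*trxB* showed the largest difference of the 8 genes in conidia. Untreated Δ*atfA* had 3.51, 3.01 and 2.32 scaled RPKM and Δ*atfA*Δ*atfB* 15.8, 21.3 and 10.8, against 81.03, 48.1 and 35.5 in the control. All 3 groups were apart from each other (log2 fold change −4.16 ± 0.53 in Δ*atfA*, adjusted p = 1.41e-06, and −1.76 ± 0.47 in Δ*atfA*Δ*atfB*, adjusted p = 0.0032). In every strain the lowest untreated value was that of replicate 3, the library of batch 2. With library totals alone the difference stayed past the test in Δ*atfA* (−3.35) and did not in Δ*atfA*Δ*atfB* (−0.90, adjusted p = 0.085). On MSB *trxB* was higher in Δ*atfA*Δ*atfB* (91.8, 85.2 and 24.9 against 28.7, 24.4 and 22.2 in the control, log2 fold change 1.16 ± 0.47, adjusted p = 0.041), a call that was lost without replicate 1 or 2 of either group (0.93 to 1.11). The gene did not pass in MSB-treated Δ*atfA* (−0.07), where the libraries of batch 1 lay above and that of batch 2 below the control. *trxB* was also the 1 gene called between untreated Δ*atfA*Δ*atfB* and Δ*atfA* conidia (2.4 ± 0.49, adjusted p = 0.0031; 11.5% of all genes), which is the reverse of its order in mycelia.

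The glutathione reductase gene *glrA* had 91.4, 88.02 and 61.4 scaled RPKM in untreated Δ*atfA* conidia and 107, 83.3 and 91.5 in Δ*atfA*Δ*atfB*, against 153, 170 and 183 in the control. Its log2 fold change was −1.08 ± 0.14 in Δ*atfA* and −0.84 ± 0.14 in Δ*atfA*Δ*atfB* untreated, and −1.06 ± 0.14 and −0.97 ± 0.14 on MSB. The first was −0.91 without replicate 3 of Δ*atfA* and −0.98 without replicate 3 of the control, and the last was −1.01 without replicate 1 of Δ*atfA*Δ*atfB* or replicate 2 of the control. With library totals alone the decrease shrank to −0.27 in untreated Δ*atfA* and vanished in untreated Δ*atfA*Δ*atfB* (0.01). *gstA* passed in Δ*atfA* with opposite signs, 0.43 ± 0.17 untreated and −0.56 ± 0.17 on MSB, and with library totals alone these were 1.24 and 0.11. The untreated value was 0.25 and did not pass without replicate 3 of Δ*atfA*.

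**Figure D4:**
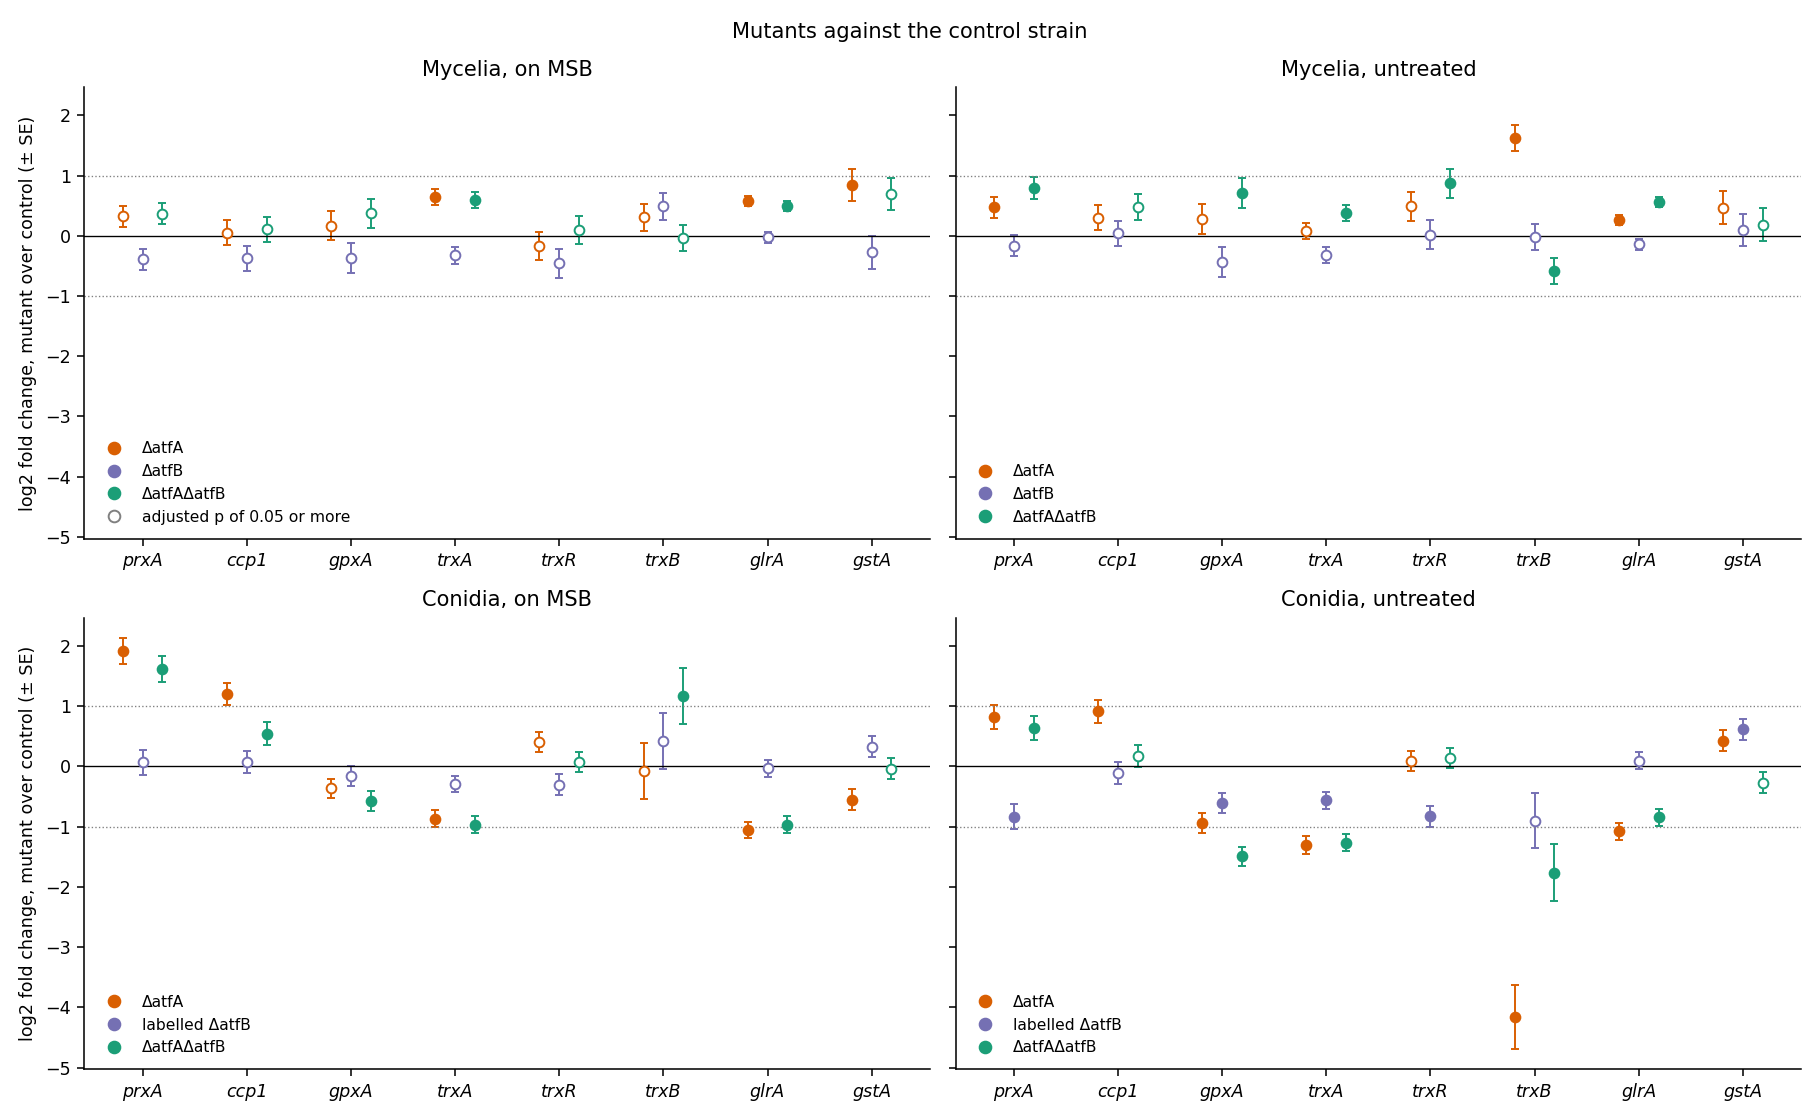
Log2 fold change over the control strain of each mutant, and in conidia of the libraries labelled Δ*atfB*, which hold *atfB* reads, for the 8 genes, with its standard error, in mycelia (top) and conidia (bottom), on MSB (left) and untreated (right); open points have an adjusted p of 0.05 or more and dotted lines mark the fold limit. In untreated cultures *trxB* lies at 1.63 in Δ*atfA* mycelia and at −4.16 in Δ*atfA* conidia. With this scaling, *prxA* lies above 0 and *trxA* and *glrA* below 0 in conidia of both strains without *atfA*. With library totals alone, which are not drawn, *glrA* in untreated Δ*atfA*Δ*atfB* conidia is at 0.01.

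The libraries labelled Δ*atfB* had none of the 8 genes called against the control in untreated conidia (4.48% of all genes; DESeq2 and limma called 0) and 5 passed (13.4% of all). *prxA* (−0.83 ± 0.21), *trxR* (−0.83 ± 0.17), *gpxA* (−0.61 ± 0.16) and *trxA* (−0.56 ± 0.14) were lower and *gstA* (0.62 ± 0.17) was higher. *prxA* had 99.05, 102.6 and 124 scaled RPKM in them, against 207, 178 and 200 in the control, and reached −1.05 without replicate 3. Passes were lost when any 1 of 2 of the 6 libraries was left out for *prxA* and *gpxA*, any 1 of 3 for *gstA*, and 1 library for *trxA*. *gpxA* was −0.41 and did not pass without replicate 1 of the untreated control. Of these, *prxA* (−0.48), *gpxA* (−0.25) and *trxA* (−0.20) did not pass with library totals alone. On MSB 0 of the 8 were called or passed (1.97% and 4.02% of all genes), with 1 at an unadjusted p below 0.05, 0 passed by DESeq2 and 1 by limma. Since these libraries hold *atfB* reads, the values describe the libraries and not a deletion. Against them, Δ*atfA*Δ*atfB* conidia had 1 of the 8 genes called in untreated conidia (29.9% of all genes) and 1 on MSB (24%), *prxA* in both (1.47 ± 0.21 and 1.55 ± 0.21). In untreated conidia *trxR* (0.97) reached 1.11 without replicate 3 of the libraries labelled Δ*atfB* and 1.14 without replicate 2 of Δ*atfA*Δ*atfB*, and *glrA* (−0.94) reached −1.03 without replicate 1 of Δ*atfA*Δ*atfB*. Between Δ*atfA*Δ*atfB* and Δ*atfA* on MSB 0 were called (1.11% of all genes), with 3 at an unadjusted p below 0.05, 1 passed by DESeq2 and 0 by limma.

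Whether the MSB effect differed between mycelia and conidia was tested in a fit of all 48 libraries, chosen after the data had been seen. In the control strain the effect was larger in mycelia by 3.56 ± 0.29 on the log2 scale for *prxA*, 3.48 ± 0.31 for *gpxA*, 3.12 ± 0.29 for *ccp1* and 2.54 ± 0.31 for *trxR*. It was larger by 1.21 ± 0.34 for *gstA* and 1.17 ± 0.20 for *trxA*. *trxB* and *glrA* did not pass. When replicate 1 of every group was left out, *trxA* was 0.97 and *gstA* 1.19 without passing, and *gstA* did not pass without replicate 2 either (1.13). The number of genes called for this difference was 7 in Δ*atfA* (25.1% of all 10264 genes tested), 5 between Δ*atfB* mycelia and the conidial libraries labelled Δ*atfB* (15.8%), 7 in Δ*atfA*Δ*atfB* (11.9%) and 6 in the control (19.3%). For *trxB* the difference was −5.77 ± 0.58 in Δ*atfA* and −2.68 ± 0.54 in Δ*atfA*Δ*atfB*, as its mean on MSB was lower in mycelia and higher in conidia. In Δ*atfA* conidia the libraries of batch 1 rose, while that of batch 2 had 3.10 scaled RPKM on MSB against 2.32 untreated. In Δ*atfA*Δ*atfB* the mycelial libraries overlapped, and the conidial pass was lost when any 1 of 5 of the 6 libraries was left out. The difference in Δ*atfA*Δ*atfB* did not pass without replicate 1 of every group (−2.19). The *atfA* deletion effect itself differed in 4 called genes in untreated cultures (38.7% of all genes), *trxB* (5.84 ± 0.57), *trxA* (1.43 ± 0.20), *glrA* (1.39 ± 0.16) and *gpxA* (1.26 ± 0.31), and in 5 on MSB (29.3%), among them *prxA* at −1.60 ± 0.28. In untreated cultures *gpxA* did not pass without replicate 1 of every group (0.85). On MSB *gstA* (1.40 ± 0.34) was 0.75 without replicate 3 of every group, and its MSB effect difference in Δ*atfA* was then 1.66 in place of 2.52. With library totals alone these conidial decreases were smaller, and the differences of *trxA*, *glrA* and *gpxA* in untreated cultures were 0.54, 0.51 and 0.37. The cell types were grown and sequenced apart, so cell type and batch cannot be told apart in their levels.

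Of 21 related genes of the antioxidant group defined in the study (6 other peroxiredoxins, 10 other glutathione and glutaredoxin genes and 5 other peroxidases), 19 were tested in mycelia. MSB raised 5 and lowered 1 of them past the fold limit in Δ*atfA*, raised 2 and lowered 1 in Δ*atfB*, raised 3 and lowered 1 in Δ*atfA*Δ*atfB*, and raised 2 and lowered 2 in the control. That is 6, 3, 4 and 4 of 19, beside the 17.5%, 13.7%, 12.7% and 14% of all genes given above. Their median log2 fold change was 0.40, 0.32, 0.22 and −0.06 in that order of strains. AN5440, another putative cytochrome c peroxidase gene, had 96.8, 96.8 and 71.4 scaled RPKM in MSB-treated control mycelia, against 19.6, 17.9 and 25.3 untreated, and was called in every strain (2.66 in Δ*atfA*, 2.79 in Δ*atfB*, 2.24 in Δ*atfA*Δ*atfB* and 2.08 in the control). AN5831, a glutathione S-transferase gene, was called in every strain as well (1.71, 1.84, 2.01 and 2.16 in the same order). The glutathione S-transferase gene *gstB* in Δ*atfA* (2.25 ± 0.35) and Δ*atfA*Δ*atfB* (2.39 ± 0.33), AN3255, a predicted glutathione peroxidase that the study groups with the transferases (−1.84 ± 0.26), and the transferase gene AN10379 (−1.67 ± 0.21), both in the control, were called too. *gstB* was low in mycelia, with 1.94, 2.14 and 4.54 on MSB against 0.791, 0.528 and 0.481 untreated in Δ*atfA*.

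In conidia all 21 related genes were tested. Of these, 2 were called higher and 8 lower in untreated Δ*atfA* against the control, with a median of −0.54, and 4 higher and 5 lower on MSB, with a median of −0.02. Of all genes 38.8% were called in untreated Δ*atfA* and 27.9% on MSB. The peroxiredoxin gene *tpxB* had 65.5, 74.7 and 47.95 scaled RPKM in untreated Δ*atfA* conidia, against 720, 747 and 831 in the control (log2 fold change −3.61 ± 0.20, adjusted p = 1.54e-11), and 178, 198 and 126 against 823, 879 and 898 on MSB (−2.37 ± 0.19). In mycelia *tpxB* was higher in MSB-treated Δ*atfA* than in the control (391.5, 365 and 326 against 137, 145 and 118, log2 fold change 1.44 ± 0.10). Untreated Δ*atfA* conidia also had lower levels of AN6457, a peroxidase gene (−3.62 ± 0.74), AN3255 (−1.99 ± 0.32) and the glutaredoxin gene AN4215 (−1.55 ± 0.11), and higher levels of AN5831 (1.85 ± 0.25). In Δ*atfA*Δ*atfB*, 0 were called higher and 7 lower in untreated conidia, and 2 higher and 5 lower on MSB, beside 35.5% and 30.0% of all genes called.

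The genes whose patterns were most like those of the 8 were found by Pearson r of log2(RPKM + 0.1) over the 48 libraries, centred on the mean of each cell type, among 9091 genes tested in both cell types. *prxA* was nearest to *trxR* (r = 0.968), then to AN6167 (0.967) and AN5228 (0.962). *ccp1* was nearest to AN5228 (0.973), *prxA* (0.959) and AN5944 (0.955), and *trxR* to *prxA*, AN5228 (0.947) and AN6167 (0.944). *gpxA* was nearest to AN7199 (0.953), AN5368 (0.942) and AN6753 (0.935). *trxA* was nearest to AN1557 (0.928), AN3747 (0.910) and AN6279 (0.901), *glrA* to AN7194 (0.920), AN7591 (0.893) and AN3663 (0.856), and *gstA* to AN9303 (0.926), AN5940 (0.892) and AN6207 (0.881). *trxB* had no partner as near, with AN4112 (0.833), AN1802 (0.789) and AN8568 (0.782). The coefficients use deposited RPKM, so in conidia they include the shift between strains that the scaling removes. The 48 points share libraries and depth between genes, and the MSB-treated mycelia stand apart from the rest for most of these genes, so the coefficients describe these libraries only.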

How the data were processed

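Gene counts and RPKM values of 48 *A. nidulans* libraries were taken as deposited. After FastQC, the authors mapped single 75 bp reads with HISAT2 2.1.0 on the genome of strain FGSC A4, counted reads per gene (counting tool, annotation and use of strand are not given in the sources used here), and computed RPKM from the counts with edgeR.

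Counts were tested with edgeR 4.0.16 (quasi-likelihood F test, relative log expression factors) in R 4.3.3, with the 8 groups of a cell type in 1 fit. Conidia had a batch term, replicates 1 and 2 being batch 1 and replicate 3 batch 2 per the labels. A gene was kept if 3 or more libraries reached 0.5 RPKM (9199 in mycelia, 10143 in conidia, 10264 over both). Benjamini-Hochberg adjustment covered all genes tested, and the script was tested on simulated data. Alternatives were TMM factors, library totals, no filter, DESeq2 1.42.0, limma 3.58.1 on log2(RPKM + 0.1), a replicate block, no batch term, batch 1 alone, fits of only the groups compared, each library left out and, chosen after seeing the data, conidia without the libraries labelled Δ*atfB*.

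The 8 genes and the related lists, which come from the antioxidant group of the study, were chosen with earlier results of these data known. All 8 genes are named, together with up to 4 called genes of each related list with the largest change and the 3 genes most like each member. *catA*, *conJ* and the other markers served only as a check of cell type.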

Additional observations from a re-analysis of the deposited data

Results flagged for a closer look

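The response to MSB differed between a mutant and the control strain in 8 tests of the difference itself (interaction terms, adjusted p below 0.05 in edgeR). In mycelia these were *trxA* (0.57) and *trxB* (−1.32) in Δ*atfA*. In conidia they were *trxB* (4.09), *prxA* (1.09) and *gstA* (−0.99) in Δ*atfA*, and *trxB* (2.93), *prxA* (0.98) and *gpxA* (0.92) in Δ*atfA*Δ*atfB*. Of all genes tested, 32.3% passed in mycelia for Δ*atfA*, and 13.2% for Δ*atfA* and 9.04% for Δ*atfA*Δ*atfB* in conidia, so the 2 of 8 in mycelia lie near the share of all genes. The value of *trxB* in Δ*atfA* conidia rests on replicates 1 and 2 on MSB, since replicate 3 (3.10 scaled RPKM) lay at the untreated level.

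The effect of MSB differed between mycelia and conidia (mycelia minus conidia, log2 scale) in every strain. In Δ*atfA* the differences were 2.26 for *prxA*, 2.52 for *ccp1*, 2.74 for *gpxA*, 1.25 for *trxA*, 1.52 for *trxR*, 0.39 for *glrA*, 2.52 for *gstA* and −5.77 for *trxB*. That of *glrA* no longer passed in any of the 3 fits with a replicate number left out of every group. Between Δ*atfB* mycelia and the conidial libraries labelled Δ*atfB* they were 2.36 for *prxA*, 2.43 for *ccp1*, 3.02 for *gpxA*, 0.82 for *trxA*, 1.46 for *trxR* and 1.05 for *gstA*. Here *trxA* and *gstA* lost the pass in 2 of 3 such fits and *trxR* in 1. In Δ*atfA*Δ*atfB* they were 2.14 for *prxA*, 2.37 for *ccp1*, 2.20 for *gpxA*, 1.08 for *trxA*, 1.83 for *trxR*, 1.48 for *gstA* and −2.68 for *trxB*. In the control they were 3.56 for *prxA*, 3.12 for *ccp1*, 3.48 for *gpxA*, 1.17 for *trxA*, 2.54 for *trxR* and 1.21 for *gstA*.

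The effect of *atfA* deletion differed between mycelia and conidia as well. In untreated cultures the difference was 5.84 for *trxB*, 1.43 for *trxA*, 1.39 for *glrA* and 1.26 for *gpxA*. On MSB it was 1.63 for *glrA*, 1.51 for *trxA*, 1.40 for *gstA*, −1.60 for *prxA* and −1.16 for *ccp1*. Cell type and batch cannot be told apart in the levels, while each effect was taken within a cell type.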

How the results depend on the processing

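Of the tests of single genes that passed, TMM factors, DESeq2, no filter and fits of only the groups compared left each direction and each call in place. With library totals alone 3 of 153 tests reversed, 16 lost and 7 gained the call, and with limma 4 of 117 reversed, 11 lost and 7 gained it. With no batch term 3 of 56 lost the call, and in batch 1 alone 4 lost and 4 gained it. The reversals, all in conidia, were *glrA* in untreated Δ*atfA*Δ*atfB* against the control (0.0063 with library totals and 0.0107 with limma), *gstA* in MSB-treated Δ*atfA* (0.1108 and 0.1082), *gpxA* in MSB-treated Δ*atfA*Δ*atfB* (0.1233 and 0.1232) and, with limma, *gpxA* between MSB-treated Δ*atfA*Δ*atfB* and the libraries labelled Δ*atfB* (0.003).

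The number of the 8 genes called moved as follows. In mycelia, Δ*atfA*Δ*atfB* against Δ*atfB* untreated had 0 with limma in place of 1. In conidia on MSB against untreated, the control had 1 in place of 0 in batch 1 alone and with only the groups compared. Δ*atfA*Δ*atfB* had 0 in place of 1 with library totals, limma, the replicate block, no batch term and without the libraries labelled Δ*atfB*. On MSB, Δ*atfA* against the control had 1 in place of 3 in batch 1 alone, and Δ*atfA*Δ*atfB* had 1 in place of 2 with no batch term and without the libraries labelled Δ*atfB*. Δ*atfA*Δ*atfB* against the libraries labelled Δ*atfB* had 2 in place of 1 with library totals (untreated and on MSB) and limma (untreated), and 3 in batch 1 alone (untreated). The interaction counts were 1 in place of 2 in Δ*atfA* and 1 in place of 0 in the libraries labelled Δ*atfB* in batch 1 alone, and 0 in place of 1 in Δ*atfA*Δ*atfB* with no batch term. For the cell-type difference of the Δ*atfA* effect on MSB, library totals gave 3 in place of 5. The cause was not tested.

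With each library left out in turn, counts ranged from 0 to 1 for mycelia of Δ*atfA* on MSB and Δ*atfA*Δ*atfB* untreated against the control, and for Δ*atfA*Δ*atfB* against Δ*atfB* on MSB, and from 0 to 3 for the last pair untreated. In conidia they ranged from 0 to 1 for MSB in the control and in Δ*atfA*Δ*atfB* and for the libraries labelled Δ*atfB* untreated against the control, from 1 to 3 for Δ*atfA*Δ*atfB* on MSB against the control and for the interaction in Δ*atfA*, and from 1 to 2 for Δ*atfA*Δ*atfB* against the libraries labelled Δ*atfB* untreated and for the interaction in Δ*atfA*Δ*atfB*. With a replicate number left out of every group, the cell-type difference of the MSB effect ranged from 6 to 7 in Δ*atfA*, from 3 to 5 between Δ*atfB* mycelia and the conidial libraries labelled Δ*atfB*, from 5 to 7 in Δ*atfA*Δ*atfB* and from 4 to 6 in the control, and that of the *atfA* effect from 3 to 4 untreated and from 3 to 5 on MSB. Of 117 tests that passed within a cell type 34 no longer passed without at least 1 of the libraries, and of 36 between cell types 7.

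Same-numbered libraries did not deviate together in most comparisons: of 42 correlations of their deviations 14 exceeded 0.1 in conidia (highest 0.457) and 11 in mycelia (highest 0.295). All pairs exceeded 0.1 in 1 of 14 comparisons in conidia and in 0 of 14 in mycelia. The numbers were not taken to pair the samples, although with 3 libraries a group this cannot show that pairing was absent. The replicate block changed 1 of 117 calls, *trxB* on MSB in Δ*atfA*Δ*atfB* conidia (1.91, adjusted p = 0.060). The lowest count of the 8 genes was that of *trxB* in an untreated Δ*atfA* conidial library.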
